A study of Mus musculus with 103 samples.

Results

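The spermatid genes Prm1, Prm2, Tnp1, Tnp2, Ldhc, Smcp, Odf1 and Akap4 were followed over an array series on labelling RNA from very small samples. They were chosen by name, with their high signal in universal RNA labelled from 10 pg already known, so that contrast is given below as a description. All 8 genes of the 12393 with an unshared symbol on the array were present, on 14 of 22626 probe sets. A gene with several probe sets is represented in counts by its brightest, and the values of the others are given beside it.

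The series held 103 arrays of mouse RNA. Stratagene Mouse Universal Total RNA, a commercial pool whose source cells the labels do not name, was on 58 of them. BIIB, a Biogen Idec protocol, was run on 4 arrays at each input of 5 ng, 1 ng, 500 pg, 100 pg, 50 pg and 10 pg. Commercial kits, 2 arrays at each input of 500 ng, 50 ng, 5 ng, 500 pg and 50 pg, were two-cycle (Affymetrix), Ovation (Nugen) and RiboAmp HS (Arcturus). Affymetrix's one-cycle labelling used 1 ug, on 4 arrays. RNA of an Ambion panel of 8 tissues (brain, embryo, heart, kidney, liver, lung, ovary and spleen, but no testis) was labelled once by BIIB from 500 pg and once by one-cycle from 1 ug. T and B lymphocytes were flow sorted from splenocytes of a single normal mouse, mixed in 6 ratios and labelled by BIIB, on 12 arrays at 100 cells and 6 at 500 cells. RAW267 cells, a cultured line named as in the labels, were labelled by BIIB on 11 arrays of 50 to 10000 sorted cells. The target hybridised was cDNA with Ovation and BIIB and cRNA with the other protocols. The strain, sex and age of the mice are not given in the sources used here, and no group carries a genetic change or a drug. Nothing in the labels says that replicate arrays came from separate RNA samples, so a p-value here sets a difference against a spread between arrays that may be technical only.

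Late in sperm formation the nucleus of the haploid spermatid is compacted. Histones give way to transition proteins (Tnp1, Tnp2) and these to protamines (Prm1, Prm2), while the tail acquires its dense fibres, fibrous sheath and mitochondrial sheath. The mRNAs of transition proteins and protamines are made in round spermatids, and several are stored for days before they are translated. The activator CREM acts there on many genes, at cAMP response elements close to the start site. The genes followed here are textbook markers of the testis.

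The promoters are shown because elements of this kind near the start were not used in choosing the members. RefSeq (GRCm38.p6) listed a start for 7 of the 8 genes, all but Odf1. The element with 1 free base, TGACNTCA on either strand, occurred from 250 bases before to 50 after a start in 4 of these 7 genes and in 10.02% of 27025 genes. It also occurred in 15 of 45 other spermatid and sperm genes with a listed start, from a list read further below. In Smcp it began at base 25, after the start. The core TGACG on either strand, which can overlap the longer element, occurred in Ldhc alone of the 7 and in 23.05% of all genes. Of the 45 other spermatid genes 15 had it. The full palindrome TGACGTCA was in none of the 7, in 2 of the 45 and in 2.03% of all genes. A match describes these letters and is not a site shown to be bound. The 100 bases before the start follow for the 4 genes with a match there, 5′ to 3′ on the gene's strand, with the matched letters in capitals. Prm1 lies at chr16:10796824-10796923 on the minus strand, Tnp1 at chr1:73015900-73015999 on the minus strand, Ldhc at chr7:46861163-46861262 on the plus strand and Akap4 at chrX:7067415-7067514 on the plus strand. The first listed start was used for Ldhc and Akap4, which have several.
Prm1: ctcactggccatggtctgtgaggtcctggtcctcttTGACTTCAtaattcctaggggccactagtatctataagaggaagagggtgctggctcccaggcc
Tnp1: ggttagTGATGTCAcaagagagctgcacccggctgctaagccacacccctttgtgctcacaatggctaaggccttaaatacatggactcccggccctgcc
Ldhc: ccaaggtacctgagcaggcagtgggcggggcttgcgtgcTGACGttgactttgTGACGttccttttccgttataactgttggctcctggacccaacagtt
Akap4: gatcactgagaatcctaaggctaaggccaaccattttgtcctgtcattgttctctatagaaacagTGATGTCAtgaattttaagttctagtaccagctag
Counted from the start, the match began at base -64 in Prm1, -94 in Tnp1 and -35 in Akap4, and the 2 matches in Ldhc at bases -61 and -47.

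Signals are MAS5 intensities on a linear scale, in which every array was set to the same trimmed mean of 2500 over its probe sets, while array medians ran from 228 to 1655. Differences are on the scale log2(signal + 125), which understates the change of dim probe sets. Several libraries stood apart before any member was considered. Among the BIIB arrays of universal RNA from 50 pg to 5 ng, the signal at the first percentile was 2.50 to 4.10 in the 10 arrays numbered 1 and 2 and 5.70 to 12 in the 10 numbered 3 and 4, without overlap. The arrays labelled brain carried the highest signals of liver genes, and the arrays labelled liver those of brain genes. Albumin (Alb) was at 1.38347e+06 and 389112 on the brain-labelled BIIB and one-cycle arrays and at 378 and 65.2 on the liver-labelled ones. Snap25, a synaptic protein gene, was at 168322 and 59507 on the liver-labelled arrays and at 70.5 and 143 on the brain-labelled ones. The other tissues had their own markers highest, except Amh, a granulosa cell gene, at 57.0 on the ovary array of BIIB. Tissue arrays are therefore called by label throughout. Among the cells, Cd3g was at 46993 to 66757 in unmixed T cells and 69.1 to 128 in unmixed B cells at 100 cells, and Cd68, a macrophage gene, at 34150 to 41417 in RAW267 at 50 cells.

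In universal RNA labelled by one-cycle from 1 ug the 8 genes were dim. Across these 4 arrays Prm1 probe set 1437054_x_at was at 5.20 to 13.8, Tnp2 at 13.0 to 35.2, Prm2 at 179 to 409 and Ldhc probe set 1415847_at at 101 to 339. None of the 14 probe sets reached the array mean of 2500 on any of the 12 one-cycle arrays, of universal RNA or of tissues. The same held for the 20 BIIB arrays of universal RNA from 50 pg to 5 ng and for the 18 kit arrays from 5 to 500 ng. At 10 pg with BIIB, 4 to 6 of the 14 probe sets were above that mean on each of the 4 arrays.

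Prm1 reached the highest member signals at 10 pg. Its probe set 1437054_x_at gave 20118, 8436, 12778 and 8770 in replicates 1 to 4 at 10 pg and 15.6, 117, 182 and 151 at 5 ng. All 4 arrays at 10 pg lay far above all 4 at 5 ng. The means were 12526 ± 5433 and 117 ± 72.4 (SD, n = 4 each), a difference of 5.68 on the log2 scale. Prm1 probe set 1439379_x_at followed it, with 16363, 6368, 7449 and 4941 against 51.8, 60.0, 24.9 and 17.3, a difference of 5.62. The third Prm1 probe set, 1415955_x_at, is the brightest over the series and moved least, from 877 ± 373 at 5 ng to 2395 ± 743 at 10 pg (SD, n = 4 each), a difference of 1.36. Over the 24 BIIB arrays of universal RNA the first pair of Prm1 probe sets correlated at r = 0.99 and the third with 1437054_x_at at 0.82, as a description across arrays that share their RNA. Prm2, the protamine made as a longer precursor, gave 3347, 5954, 5231 and 3790 at 10 pg and 366, 568, 201 and 192 at 5 ng, a difference of 3.40 without overlap.

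The transition protein genes were also higher at 10 pg, at lower signals. Tnp1 probe set 1415924_at gave 1313, 840, 1421 and 397 at 10 pg against 6.30, 151, 47.1 and 125 at 5 ng, a difference of 2.37. Its second probe set, 1438632_x_at, differed by 2.02. Tnp2 gave 1324, 884, 705 and 435 at 10 pg against 196, 335, 24.6 and 56.9 at 5 ng, a difference of 1.85. For both genes the 2 inputs did not overlap.

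Of the genes of sperm metabolism and the tail, Ldhc and Smcp were highest. Ldhc encodes the germ cell lactate dehydrogenase subunit, and its probe set 1415847_at gave 7816, 8316, 4889 and 2725 at 10 pg against 215, 38.7, 76.5 and 48.8 at 5 ng, a difference of 4.73. Its other probe set, 1415846_a_at, differed by 2.24. Smcp, a cysteine-rich protein of the mitochondrial capsule, gave 4697, 2928, 2281 and 858 at 10 pg against 11.4, 11.4, 13.4 and 21.0 at 5 ng, a difference of 4.12. Odf1, an outer dense fibre protein, gave 827, 720, 37.4 and 337 against 106, 23.0, 85.0 and 40.0, and the third array at 10 pg lay inside the 5 ng range. Akap4, the scaffold of the fibrous sheath, gave 1703, 1937, 714 and 292 at probe set 1451661_at against 4.90, 54.5, 48.6 and 354, and the fourth array at 10 pg lay below the highest at 5 ng. Its other probe sets, 1419019_a_at and 1451662_x_at, differed by 1.89 and 2.51 without overlap.

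By this description 6 of 8 genes were at least 2-fold higher at 10 pg without overlap, where 2.3% of all probe sets were. The members' median difference was 2.36 and that of all probe sets -0.27. The genes were chosen with this contrast known, so the count supports nothing further. The 10 pg arrays also had lower medians (257 to 446 against 541 to 635 at 5 ng) and a higher 3′ to 5′ signal ratio of beta-actin (19.7 to 91.9 against 15.9 to 24.8). Replicate arrays at 10 pg correlated with each other at 0.642 to 0.703 over all probe sets, against 0.950 to 0.973 at 5 ng. The part of these features in the members' signal was not tested.

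**Figure D1:**
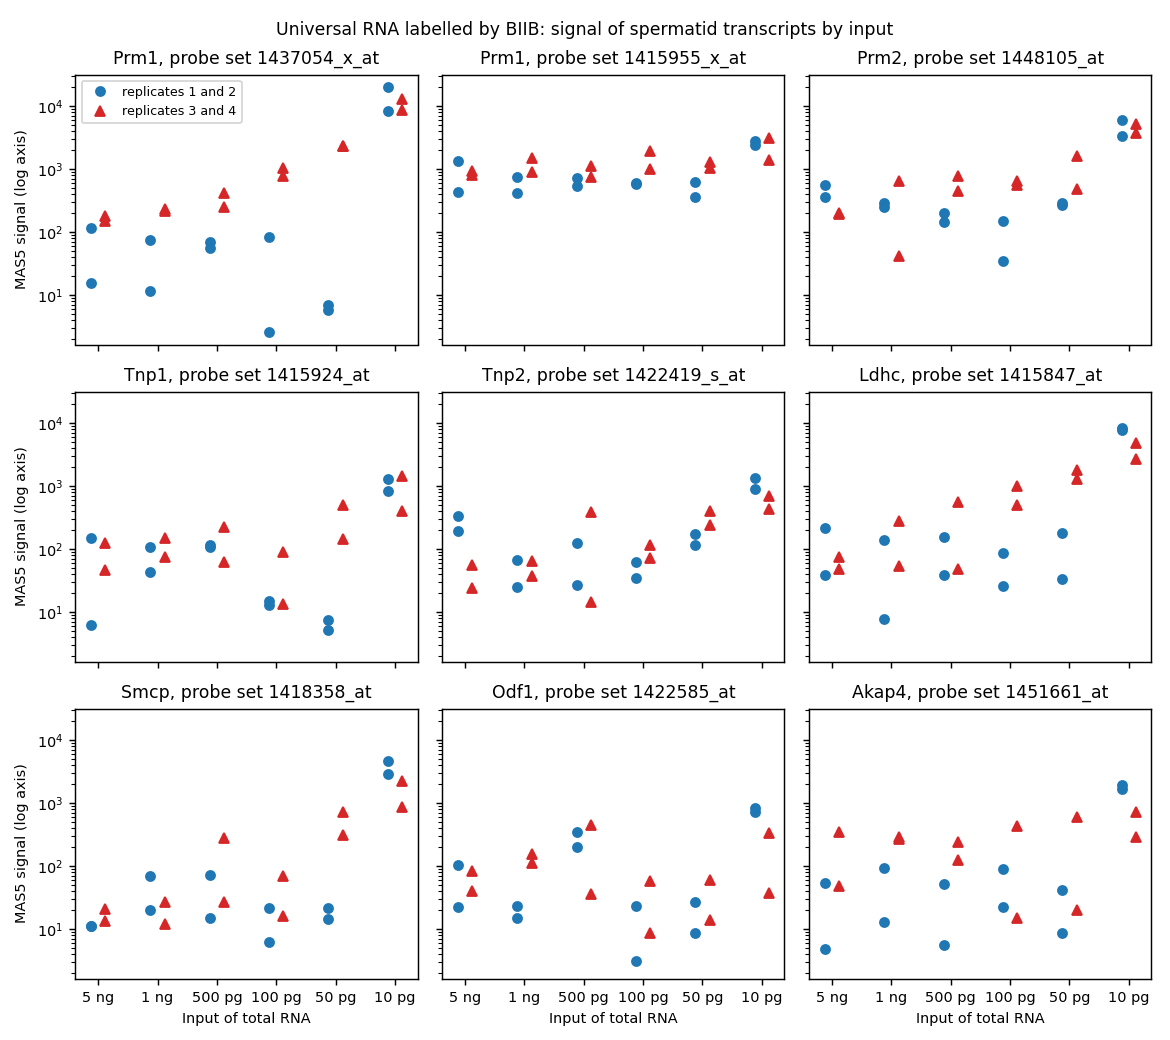
Signal (log axis) of 9 probe sets of the 8 genes in universal RNA labelled by BIIB, by input of total RNA, 1 point per array, with replicates 1 and 2 as circles and 3 and 4 as triangles. Prm1 at 1437054_x_at reached 2325 in both triangles at 50 pg while both circles stayed under 10, and all 4 arrays at 10 pg lay at 8436 or above.

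The intermediate BIIB inputs were tested against 1 ng, which the choice of genes had not used, by limma over all probe sets a call being an adjusted p (Benjamini-Hochberg) under 0.05 together with a change of at least 2-fold. At 500 pg 0 of 8 members were called and 0% of all probe sets, and 0 of 8 members were under an unadjusted p of 0.05 against 846 probe sets in all. At 100 pg the counts were 0 of 8 called, against 0.00442% of all probe sets, and 0 of 8 under the unadjusted threshold, against 1955. At 50 pg 0 of 8 were called, against 0.256% of all probe sets, all of them lower at 50 pg, and 1 of 8 (Tnp2) was under the unadjusted threshold, against 2141. Tnp2 was 1.01 ± 0.33 (SE) higher at 50 pg, with signals of 176, 118, 244 and 407 against 67.3, 24.9, 37.8 and 63.9 at 1 ng (limma adjusted p = 0.317). Its arrays at 50 pg did not overlap those at 1 ng, but they overlapped those at 5 ng (196, 335, 24.6 and 56.9). The share of all probe sets without overlap at 50 pg was not computed.

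At 50 and 100 pg the replicates numbered 3 and 4 had high signals of several members and those numbered 1 and 2 did not. Prm1 at 1437054_x_at gave 7.1, 5.9, 2325 and 2326 in replicates 1 to 4 at 50 pg, and 85.2, 2.6, 782 and 1034 at 100 pg. The 1439379_x_at probe set gave 13.5, 12.8, 1489 and 1465 at 50 pg, and 104, 24.8, 720 and 781 at 100 pg. Both protamine 1 probe sets thus split the same way at both inputs. Ldhc at 1415847_at gave 34.0, 181, 1279 and 1779 at 50 pg, and 26.5, 86.2, 498 and 1021 at 100 pg. Smcp gave 21.9, 14.4, 307 and 733 at 50 pg but 21.5, 6.4, 16.1 and 70.8 at 100 pg. Prm2 gave 295, 268, 482 and 1635 at 50 pg. Odf1 stayed at 8.6 to 59.5 on all 4 arrays at 50 pg.

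With the split inside each group the spread was wide. For 50 pg against 1 ng, Prm1 at 1437054_x_at differed by 1.24 ± 1.02 (SE; limma adjusted p = 0.806), Ldhc at 1415847_at by 1.42 ± 0.77 (adjusted p = 0.643) and Smcp by 0.92 ± 0.57 (adjusted p = 0.709). Within replicates 3 and 4 these differences were 2.81, 2.61 and 2.08, and within replicates 1 and 2 they were -0.33, 0.24 and -0.23. The 50 pg arrays numbered 3 and 4 also had higher medians (370 to 493) than those numbered 1 and 2 (228 to 261), and 6 to 7 of 14 member probe sets above 20% of the array mean against 0 to 1. What the pairs of arrays differ in is not stated in the labels, and its part was not tested.

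The kits were compared at 500 and 50 pg with their own 500 ng arrays, in a fit of each kit's 10 arrays over 5 inputs. At 500 pg, 0 of 8 members were called with each kit, where 0% of all probe sets were called with two-cycle, 8.33% with Ovation (1.11% higher) and 0% with RiboAmp HS, and 0 of 8 were under an unadjusted p of 0.05 with any of them. The unadjusted counts over all probe sets were 316, 5421 and 721. Replicate 2 of two-cycle at 500 pg nevertheless gave Prm2 at 2356, Akap4 at 1041 (1451661_at) and Prm1 at 619 (1437054_x_at), against 221, 252 and 3.2 in replicate 1.

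At 50 pg some members rose with Ovation and RiboAmp HS. Ovation gave Prm2 at 3181 and 1451 against 336 and 51.8 at 500 ng, a rise of 3.00 ± 0.71 (SE; limma adjusted p = 0.019). Tnp2 was at 4291 and 712 against 373 and 41.2, a rise of 2.74 ± 0.85 (adjusted p = 0.049). Ldhc at 1415847_at was at 3092 on one array and 89.8 on the other, and the Tnp1 probe sets were bright on different arrays, 1415924_at at 113 and 1699 and 1438632_x_at at 2057 and 162. In all 2 of 8 members were called higher, 25% of them, against 12.4% of all probe sets (22.3% either way), with a median change of 1.64 for members and 0.48 for all.

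With RiboAmp HS at 50 pg Smcp, Ldhc, Prm1 and Tnp1 rose. Smcp gave 892 and 3745 against 23.4 and 9.1 at 500 ng, a rise of 3.81 ± 0.88 (SE; limma adjusted p = 0.029). Ldhc rose at both probe sets, 1415846_a_at by 3.92 ± 0.85 (628 and 6110 against 32.0 and 5.0; adjusted p = 0.027) and 1415847_at by 2.46 ± 0.62 (1459 and 578 against 87.8 and 48.0; adjusted p = 0.036). Prm1 at 1415955_x_at rose by 3.40 ± 0.95 (846 and 8078 against 144 and 139; adjusted p = 0.046), whereas 1437054_x_at was at 526 and 195. Tnp1 at 1415924_at rose by 2.44 ± 0.64 (986 and 658 against 9.3 and 95.4; adjusted p = 0.040). So 4 of 8 members were called higher, 50%, against 9.08% of all probe sets (11.5% either way), with medians of 2.09 and 0.75.

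With two-cycle at 50 pg 0 of 8 members were called and 0% of all probe sets, with 3 of 8 and 5242 under an unadjusted p of 0.05. Single arrays were nonetheless high. Replicate 2 gave Ldhc at 11390 (1415846_a_at), Akap4 at 5976, 2825 and 4307 on its 3 probe sets and Prm1 at 5982 (1415955_x_at), where replicate 1 gave 85.9, then 50.4, 16.8 and 461, and 1495. The 2 Ldhc probe sets parted on replicate 2, since 1415847_at was at 236. Prm1 at 1437054_x_at was at 97.7 and 54.2, the probe set that was brightest with BIIB at 10 pg.

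The arrays at 50 pg also differed from those at 500 ng in other ways. The 2 replicates correlated at 0.261 (two-cycle), 0.397 (Ovation) and 0.392 (RiboAmp HS) over all probe sets, against 0.976 to 0.985 at 500 ng. The signal at the first percentile was 56 to 118 with Ovation and 39 to 114 with RiboAmp HS, against 7.9 to 8.0 and 5.6 to 7.5 at 500 ng. Array medians with RiboAmp HS were 1028 to 1311 against 397 to 449. The part of these in the members' signal was not tested.

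The kit calls at 50 pg rest on few arrays. All of those named were lost in a fit of the 2 inputs alone, with adjusted p from 0.121 to 0.226, and when either 500 ng array of the kit was left out, with adjusted p from 0.067 to 0.295. Without Ovation 50 pg replicate 1 Tnp2 fell to 1.54 (adjusted p = 0.124), and without RiboAmp HS 50 pg replicate 2 Prm1 fell to 1.86 (adjusted p = 0.098) and Smcp to 2.85 (adjusted p = 0.060). Without two-cycle 50 pg replicate 1 the two-cycle count became 4 of 8. The quiet arrays at higher inputs enter the shared spread, so SE and p at 50 pg can be too small.

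**Figure D2:**
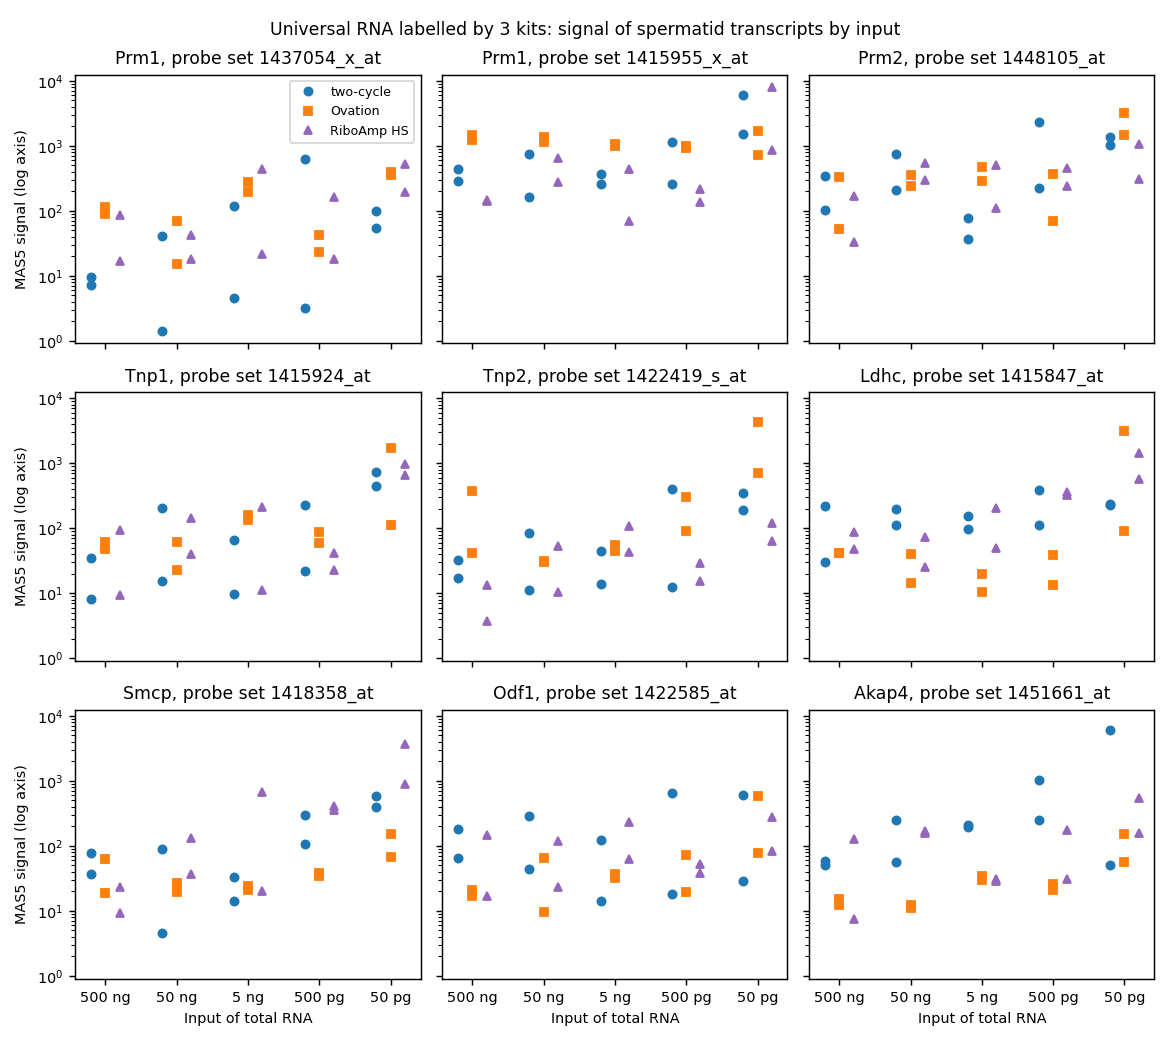
Signal (log axis) of 9 probe sets of the 8 genes in universal RNA labelled by two-cycle, Ovation or RiboAmp HS, by input, with 2 arrays per kit and input. High points at 50 pg are mostly 1 of 2 arrays, such as Akap4 (1451661_at) with two-cycle at 5976 and 50.4 and Tnp2 with Ovation at 4291 and 712.

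In RAW267 cells 1 probe set each of Prm1 and Tnp1 rose as the cell number fell. Prm1 at 1437054_x_at gave 36466 and 7822 at 50 cells, 1092 at 100, 398 and 1617 at 500, 950 and 645 at 1000, 122 and 299 at 5000, and 57.5 and 236 at 10000. Both arrays at 50 cells lay above the other 9. Its fitted rise from 10000 to 50 cells was 5.23 ± 0.85 on the log2 scale (SE; limma adjusted p = 0.030). Tnp1 at 1438632_x_at rose by 3.06 ± 0.53 (adjusted p = 0.037), with 2162 and 1350 at 50 cells against 17.8 to 439 on the other 9 arrays.

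The other protamine and transition protein probe sets did not pass. Prm1 at 1415955_x_at, which represents the gene in the counts, gave 4772 and 8450 at 50 cells against 1167 to 3695 elsewhere (1.27 ± 0.52 SE, limma adjusted p = 0.217). Tnp1 at 1415924_at gave 2174 and 10022 at 50 cells and 209 to 1683 elsewhere, a fitted difference from 10000 to 50 cells of 3.26 ± 0.69 (SE; limma adjusted p = 0.051). Prm1 at 1439379_x_at gave 19709 and 3168 against 133 to 960 (4.01 ± 0.93, adjusted p = 0.060). Prm2 gave 5162 and 6017 against 387 to 964 (2.55 ± 0.66, adjusted p = 0.078). Each of these 4 probe sets had both 50-cell arrays above the other 9. How many of all probe sets did so was not computed, so this order, here and below, supports nothing further. Tnp2 gave 1021 and 101 at 50 cells, inside the range of 105 to 1218 elsewhere but for the lower array (-0.05 ± 0.70, adjusted p = 0.979).

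No probe set of Smcp, Ldhc, Akap4 or Odf1 passed the test in RAW267. Smcp was at 7212 on one 50-cell array and 215 on the other, and at 11.4 to 322 elsewhere (2.79 ± 0.95 SE, limma adjusted p = 0.151). Ldhc at 1415847_at, among the brightest members at 10 pg, was at 647 and 41.6 (0.23 ± 0.62, adjusted p = 0.885), although 1415846_a_at was at 1389 and 1520 against 15.2 to 251 (2.06 ± 0.79, adjusted p = 0.192). At 1415846_a_at both 50-cell arrays lay above the other 9. Akap4 was at 42.1 and 30.4 at 1451661_at, inside the range of 6.90 to 327 elsewhere (-0.33 ± 0.54, limma adjusted p = 0.800). At 1419019_a_at it was at 806 and 275 against 9.40 to 51.4 (1.57 ± 0.53, adjusted p = 0.147), both above the other 9. At 1451662_x_at it was at 367 and 148 against 9.40 to 280 (0.86 ± 0.47, adjusted p = 0.360). Odf1 was at 100 and 79.2 against 7.20 to 55.2 (0.21 ± 0.30, limma adjusted p = 0.767), both above the other 9 at low signal. Counted by the brightest probe set, 0 of 8 members were called, against 0.477% of all probe sets (0.102% higher), with 4 of 8 and 4114 of all under an unadjusted p of 0.05. Both calls given come from second probe sets, and 2 of 14 probe sets were called.

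Both calls were lost without either 50-cell array. Without replicate 1 at 50 cells the Prm1 rise was 4.00 (limma adjusted p = 0.065) and the Tnp1 rise 2.50 (adjusted p = 0.089), and without replicate 2 they were 5.17 (adjusted p = 0.081) and 2.83 (adjusted p = 0.088). They were also lost without any of the arrays at 5000 or 10000 cells, and that of Tnp1 without replicate 1 at 1000 cells, with adjusted p up to 0.109. The summed signal of the 8 genes was 21130 to 24956 at 50 cells and 2854 to 7122 on the other 9 arrays. The beta-actin 3′ to 5′ ratio was 30.0 to 35.8 at 50 cells against 16 to 26.4, and array medians were 368 to 372 against 454 to 570. The part of these in the result was not tested. Cd3g stayed at 17.8 to 61.4 on the 50-cell arrays.

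**Figure D3:**
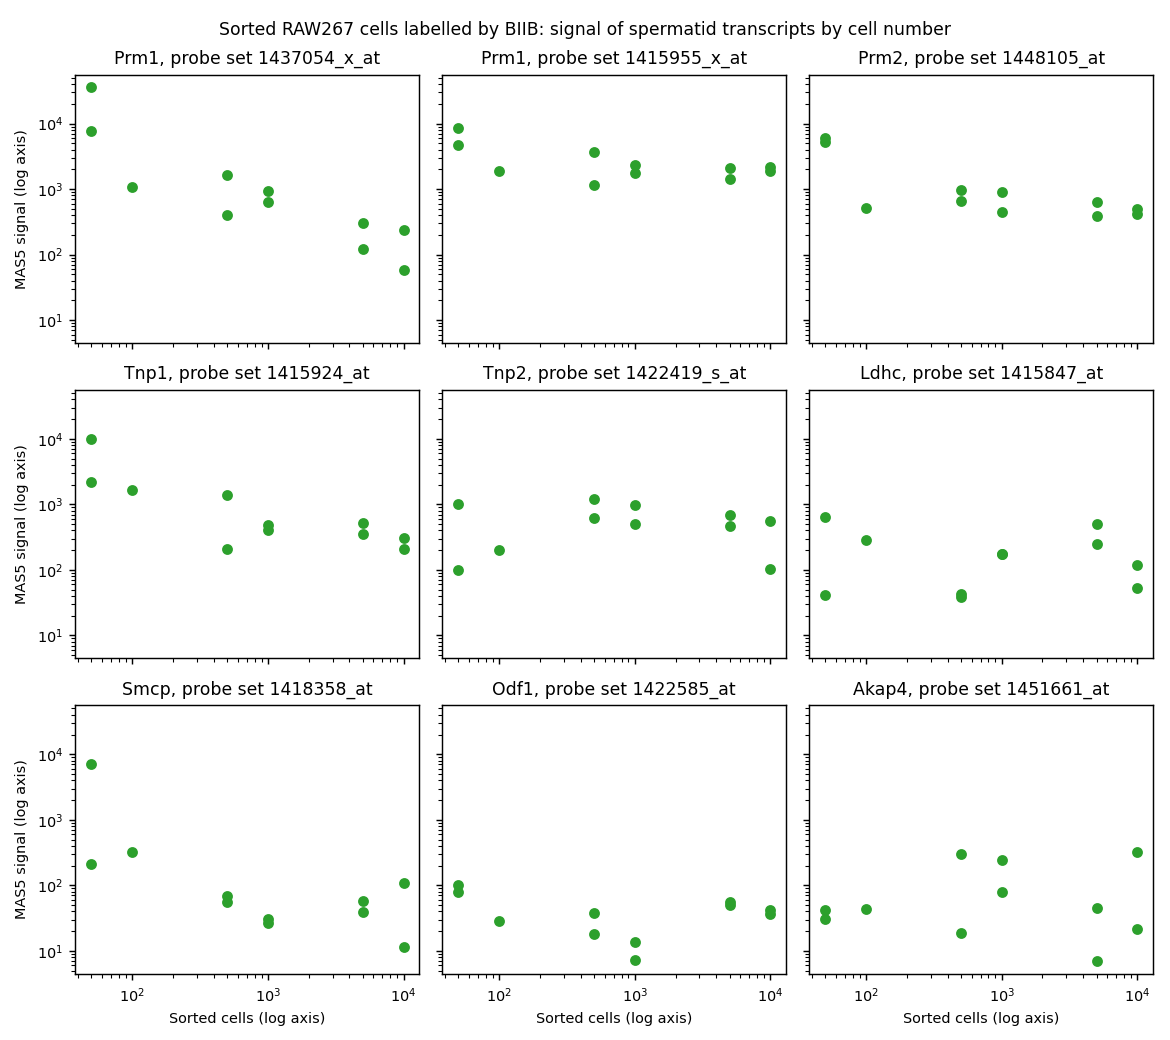
Signal (log axis) of 9 probe sets of the 8 genes in RAW267 cells labelled by BIIB, by number of sorted cells (log axis), 1 point per array. Both 50-cell arrays lay above the other 9 for Prm1, Prm2, Tnp1 and, at low signal, Odf1 (100 and 79.2). They did not for Tnp2, Smcp, Ldhc (1415847_at) at 647 and 41.6 or Akap4 (1451661_at) at 42.1 and 30.4.

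In sorted lymphocytes no member passed the test between 100 and 500 cells. With the T to B ratio in the fit, 0 of 8 members and 0% of all probe sets were called by limma, with 1 of 8 (Smcp) and 1284 of all under an unadjusted p of 0.05. Smcp ran from 105 through a median of 1200 to 2426 on the 12 arrays of 100 cells and from 59.5 through 101 to 313 on the 6 of 500 cells. The difference was 1.94 ± 0.62 (SE; limma adjusted p = 0.788), with the ranges overlapping. Prm1 at 1437054_x_at ran from 49.1 through 1248 to 2151 at 100 cells and from 101 through 480 to 1033 at 500 cells (0.93 ± 0.54, adjusted p = 0.908). Tnp2 was steady at 500 cells, 4420 to 8425, and scattered at 100 cells, from 192 through a median of 1800 to 102580 (-1.23 ± 0.95, adjusted p = 0.926). Its 2 extreme arrays were 102580 in replicate 1 of unmixed B cells and 69885 in replicate 2 of the mix of 20 T and 80 B cells, whose partner arrays gave 1988 and 192. Prm1 at 1415955_x_at was at 1417 to 11026 at 100 cells and 2277 to 6190 at 500. These arrays had medians of 776 to 1170, above those of the RAW267 arrays, and 1 to 3 member probe sets above the mean on each 500-cell array.

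Among tissues, the brain-labelled BIIB array had the highest signals of several members. It gave Ldhc at 16612 (1415847_at), Prm1 at 6326 (1437054_x_at), Akap4 at 4167 (1451661_at), Smcp at 3811 and Prm2 at 3407, where the one-cycle array of the same label gave 234, 73.9, 120, 22.9 and 87.1. Of the 14 probe sets 7 were above the array mean and 12 above 20% of it. On the other 7 BIIB tissue arrays 0 or 1 was above the mean, and Prm1 ran from 9.90 through a median of 357 to 2045. Ldhc was also high on the arrays labelled lung (5135), ovary (3649) and liver (1624), against 803, 53.0 and 36.7 by one-cycle, and was at 14.8 to 336 on the other 4. Prm1 at 1415955_x_at was highest on the heart array (3404, against 1599 on brain) and Tnp2 on the liver-labelled array (1031, against 811). Smcp was at 1714 and 1696 on the BIIB arrays labelled embryo and kidney, and here one-cycle gave 863 and 733, the highest of its 8 arrays. The BIIB and one-cycle arrays of a label differ in protocol, input and hybridised nucleic acid. The part of these in the signals was not tested, nor whether the tissue RNA held the transcripts. How many cells carry a transcript and how much each holds cannot be told apart in tissue RNA.

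Compared by tissue over all 8 labels, 2 of 8 members were called higher with BIIB than with one-cycle and 0 lower, 25% against 8.87% of all probe sets (29.2% either way). The members' median change was 0.70 and that of all probe sets -0.28. Prm1 was higher at its 3 probe sets, by 1.02 ± 0.23 at 1415955_x_at (SE; limma adjusted p = 0.0030, higher on 8 of 8 tissues), 1.55 ± 0.47 at 1437054_x_at (adjusted p = 0.015) and 1.26 ± 0.46 at 1439379_x_at (adjusted p = 0.040). Ldhc at 1415847_at was higher by 1.94 ± 0.67 (adjusted p = 0.029). Prm2 was 1.00 ± 0.45 higher (adjusted p = 0.083) and Smcp 0.50 ± 0.53 (adjusted p = 0.456). The comparison joins a difference of protocol, of input and of hybridised nucleic acid.

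Without the brain-labelled pair Prm1 was 1.06 (limma adjusted p = 0.0051) and 1.05 (adjusted p = 0.018) higher at 1415955_x_at and 1437054_x_at, whereas 0.79 at 1439379_x_at (adjusted p = 0.077) and 1.43 for Ldhc (adjusted p = 0.075) did not pass. The Ldhc call was also lost without the pair labelled liver, lung or ovary, with adjusted p from 0.060 to 0.080. At 1415955_x_at the change fell under 2-fold without the pair labelled embryo (0.97), heart (0.84) or liver (0.95). At 1439379_x_at the call was also lost without embryo, lung, ovary or spleen, with adjusted p from 0.052 to 0.106.

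**Figure D4:**
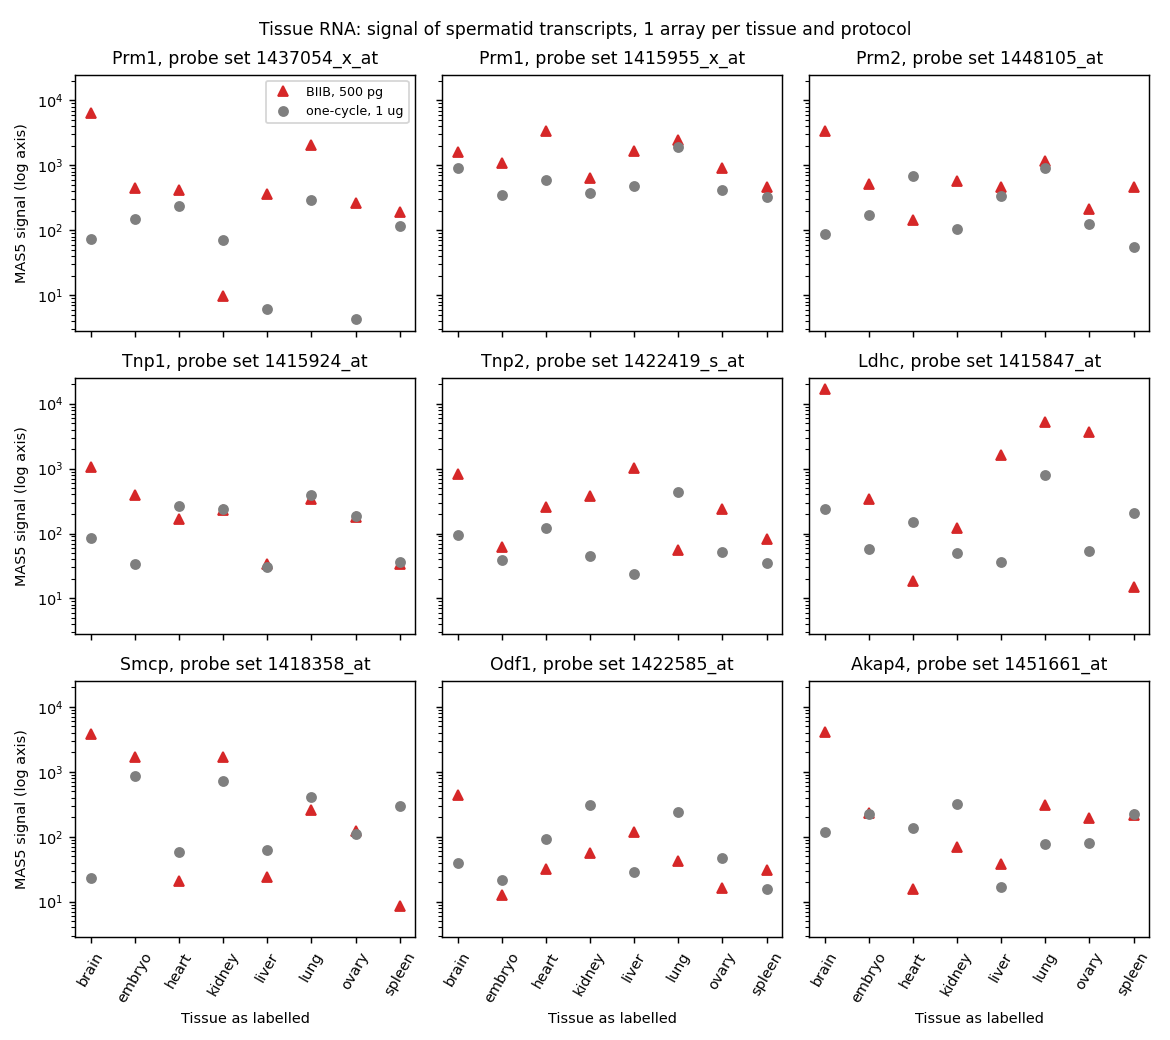
Signal (log axis) of 9 probe sets of the 8 genes on tissue arrays, by tissue as labelled, with BIIB from 500 pg as triangles and one-cycle from 1 ug as circles, 1 array each. The brain-labelled BIIB array is the highest for Prm1 (1437054_x_at, 6326), Prm2 (3407), Ldhc (16612), Smcp (3811) and Akap4 (4167).

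Other genes of the spermatid and of the testis were read in the same arrays, as lists. All lists were chosen with earlier results of these data known. The contrast of 10 pg with 5 ng was also known when the members were chosen. List counts at 10 pg are therefore a description and support nothing further. Of 44 other spermatid and sperm genes on the array, 11 were at least 2-fold higher at 10 pg than at 5 ng without overlap, 25% against 2.3% of all probe sets, with a median difference of 1.01. They were Gapdhs and Pgk2 (sperm glycolysis), Tssk2 and Tssk6 (testis kinases), Adam3, Tcp11, Hils1 (a spermatid linker histone), Gsg1, Spata4, Spata19 and Spz1. Tcp11 was at 1653 ± 673 against 322 ± 270, Gapdhs at 1308 ± 493 against 273 ± 101, Adam3 at 1295 ± 691 against 162 ± 146 and Tssk6 at 1134 ± 715 against 33.6 ± 36.4 (SD, n = 4 each). Odf2, brightest of the list, was at 5391 ± 1671 and 5027 ± 1203 and is also used by somatic centrosomes.

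Earlier germ cell stages and testis somatic cells were read the same way. The description held for 3 of 18 meiotic genes (Dmc1, Piwil1 and Clgn), 1 of 9 spermatogonial genes (Gfra1), 0 of 12 Sertoli cell genes and 1 of 5 Leydig cell genes (Star). These are 16.7%, 11.1%, 0% and 20% of short lists, against 2.3% of all probe sets. Clgn, a chaperone of sperm membrane proteins, was at 1044 ± 806 against 96.8 ± 93.8 (SD, n = 4 each). Clu, in the Sertoli list but widely expressed, was at 40316 ± 22783 against 13918 ± 2505, with overlap of the groups at 16090 and 17030. The median differences of these 4 lists were 0.30, 0.25, 0.08 and 1.20. No test compared one list with another.

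Several genes of a list of secreted liver proteins were high at 10 pg as well. Of 13, 7 were at least 2-fold higher without overlap (Alb, Ttr, Apoa1, Apoa2, Fgb, Ahsg and Hpx), 53.8% against 2.3% of all probe sets, with a median difference of 1.72. Alb was at 5930 ± 2696 at 10 pg and 84.7 ± 145 at 5 ng, and Ttr at 2090 ± 1032 and 43.1 ± 21.3 (SD, n = 4 each). Their summed signal was 12972 to 27993 at 10 pg and 2268 to 5025 at 5 ng, beside 10204 to 23952 and 1310 to 2241 for the 8 spermatid genes. On the brain-labelled BIIB array, which held liver genes, it was 6.38295e+06 and that of the 8 spermatid genes 31901. In RAW267 it was 3864 to 27365 at 50 cells but 36571 on the 100-cell array, where the spermatid sum was 4964.

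In the tested comparisons the other spermatid genes gave 0 of 44 called at BIIB 500, 100 and 50 pg and in RAW267. Of all probe sets 0%, 0.00442%, 0.256% and 0.477% were called there, so few calls could be looked for. The 10 pg input was not tested. With Ovation at 50 pg 6 of 44 were higher (Gapdhs, Catsper1, Dbil5, Cox6b2, Akap3 and Odf4), 13.6% against 12.4% of all probe sets. With RiboAmp HS at 50 pg 4 of 44 were higher (Tekt2, Dbil5, Akap3 and Prss21), 9.09% against 9.08%. Between BIIB and one-cycle tissues 4 of 44 were higher, 9.09% against 8.87% of all probe sets, and 1 was lower. These 3 shares called higher were near those of all probe sets. Other lists also had a median rise with the kits at 50 pg. With RiboAmp HS it was 1.95 for Leydig, 1.82 for Sertoli and 1.40 for liver genes. It was 1.31 for other spermatid, 1.21 for spermatogonial and 0.68 for meiotic genes. The members had 2.09 and all probe sets 0.75. With Ovation the lists besides the members ran from 0.80 (Sertoli) to 1.98 (Leydig), beside 1.64 and 0.48. With two-cycle they ran from 1.14 (Sertoli) to 1.62 (Leydig), beside 1.87 and 0.49.

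The probe sets whose pattern was most like the members' mean were found by correlation of log2 signal, as a description over arrays that share RNA and protocol. Over the 24 BIIB arrays of universal RNA the members themselves correlated with their mean at 0.65 (Odf1) to 0.96 (Smcp). Each member is part of that mean, which raises its own correlation but not those of other genes, here and over all arrays. The 24 include the 10 pg arrays, whose high member signals were known when the genes were chosen. The most alike other genes were Alb (r = 0.93), Apoa1 (0.93 and 0.91), Aqp7 (0.92), Serpina1b (0.91), Rps20 (0.90), Gnas (0.90), Ndrg1 (0.90), Rpl7a (0.90) and Ifna1 (0.89). Over all 103 arrays the members ran from 0.54 (Odf1) to 0.86 (Prm2). The most alike were then Cby2 (0.78), Nfatc2 (0.76), Fabp9 (0.76), Itga9 (0.75), Catsperz (0.74), Tubb4b (0.73), Iqcf3 (0.73), Fhl5 (0.72), Tulp2 (0.72) and Asic5 (0.72). Of these Fabp9, a fatty acid binding protein of sperm, was at 1405 ± 345 at 10 pg and 104 ± 170 at 5 ng, and Catsperz, a part of the sperm calcium channel, at 1217 ± 507 and 81.3 ± 76.2 (SD, n = 4 each).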

How the data were processed

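The deposited values are signal intensities on a linear scale, made with MAS5 per the submitters' processing notes. Its version and settings are not given in the sources used here. By their values, the authors' arrays had been scaled to 1 level: trimmed of 2% of probe sets at each end, their means were 2499.56 to 2502.55. Array medians ran from 228 to 1655, and precision is limited by how many arrays a group has.

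Arrays were brought to a trimmed mean of exactly 2500.31. Values were analysed as log2(signal + 125), where 125 is 5% of that mean. Of 22690 probe sets 64 were controls and 22626 were tested, without a filter on low signal. The platform annotation gave 20380 of the non-control probe sets 1 symbol and 691 several, and did not list 1555. The named genes were the 8 members by their brightest probe set over the 103 arrays (the others given too), the 5 genes of each list brightest at 10 pg, and the 10 most alike probe sets. Genes of a count of 11 or fewer were named after their values were seen. The members and lists were chosen with earlier results of these data known.

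Tests used limma 3.58.1 in R 4.3.3 (lmFit, eBayes, two-sided). The call was a Benjamini-Hochberg adjusted p under 0.05 over all probe sets and at least 2-fold. The RAW267 fit was a slope on log10 cell number, and the tissue fit was paired by label. The scripts were tested on simulated data. Alternatives were quantile normalization, a pseudocount of 20% of the mean, a filter at a mean signal of 500, leaving out arrays, and others named in the closing section. Technical groups of replicates 1 and 2 against 3 and 4 were added after seeing the data. Promoters came from RefSeq (GRCm38.p6).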

Additional observations from a re-analysis of the deposited data

Results flagged for a closer look

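In 98 combinations of a group of arrays and a member probe set, a single distant array stood out in 5, and chance flags about 1 in 20. All lay at signals under the array mean. Ldhc at 1415846_a_at was 9.90 in replicate 2 of BIIB 5 ng, against 95.3 to 119 on the other arrays. Tnp1 at 1415924_at was 91.2 in replicate 4 of BIIB 100 pg, against 13.1 to 14.9, and 115 in replicate 4 of one-cycle, against 16.8 to 19.7. Akap4 at 1451661_at was 604 in replicate 3 of BIIB 50 pg, against 8.89 to 42.5. Ldhc at 1415846_a_at was 25.8 in replicate 1 of one-cycle, against 5.70 to 7.60.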

How the results depend on the processing

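The counts of members called at BIIB 500, 100 and 50 pg, with each kit at 500 pg and in lymphocytes were 0 under every alternative run. At 50 pg with Ovation the count of 2 became 1 with quantile normalization and with a pseudocount of 20%, and 0 in a fit of the 2 inputs alone, with 0 to 4 when 1 array was left out. With RiboAmp HS the count of 4 became 0 with quantile normalization, 1 with the pseudocount, 2 of the 2 that passed the low-signal filter and 0 with the 2 inputs alone, with 0 to 4 when 1 array was left out. With two-cycle it was 0 to 4 when 1 array was left out. In RAW267 the count of 0 became 1 of the 5 that passed the filter, and 0 to 2 when 1 array was left out. The filter takes the mean over all arrays of a fit, those at the lowest input or cell number included. A member high on those arrays can pass through them, so the filtered counts of members lend no support. In tissues the count of 2 became 4 with quantile normalization and 1 with the pseudocount, and 0 to 2 when 1 pair was left out. At 10 pg 6 to 7 of 8 members met the description when 1 array was left out. The cause of these changes was not tested, beyond the fewer samples or genes of a fit.

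The replicate block, which uses the replicate number, gave 1 for Ovation (Tnp2 adjusted p = 0.055) and 2 for RiboAmp HS at 50 pg (Prm1 adjusted p = 0.063, Tnp1 0.052), and changed no other count of members called. It took all probe sets called at BIIB 50 pg from 58 to 0 and at 100 pg from 1 to 0. For BIIB 500, 100 and 50 pg against 1 ng, deviations of same-numbered arrays correlated at 0.043 to 0.151. Arrays of different number correlated at 0.033 to 0.158 within the numbers 1 and 2 or 3 and 4, and at -0.133 to -0.036 across these pairs. The pairs of numbers thus deviated together, and the single numbers, not all over 0.1, were not taken as pairing. For 10 pg against 5 ng same-numbered arrays correlated at -0.048 to 0.018, and for the kits at -0.013 to 0.188. The within-pair and technical-block fits below were chosen after seeing the data.

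For BIIB 50 pg against 1 ng within replicates 1 and 2 the change turned to -0.33 (Prm1, 1437054_x_at), -0.18 (Prm1, 1439379_x_at) and -0.23 (Smcp). Over all probe sets the 58 calls at BIIB 50 pg became 7 with quantile normalization, 34 with the filter, 264 against 5 ng, 30 with the pairs of replicates as a technical block and 0 within either pair. Leaving out 1 array gave 0 to 243. The 1 call at 100 pg became 113 against 5 ng and 2 with the technical block, 0 under 5 others, and 0 to 51 without 1 array. Two-cycle at 50 pg went from 0 to 144 with quantile normalization, 31 with the filter and 0 to 13573 without 1 array. Ovation went from 1885 to 556 at 500 pg with quantile normalization and from 5048 to 0 at 50 pg with the 2 inputs alone. RiboAmp HS at 50 pg went from 2595 to 805 and 0 under the same settings, RAW267 from 108 to 345 with the pseudocount and 338 with the filter, and tissues from 6596 to 3896 with the pseudocount. Without 1 array the counts over all probe sets were 0 to 2310 (Ovation 500 pg), 0 to 10910 (Ovation 50 pg), 0 to 11000 (RiboAmp HS 50 pg) and 0 to 1019 (RAW267), so the shares that members are set against move as well. With the pseudocount Smcp at 10 pg was 2.48 in place of 4.12. Of 93 other settings for single probe sets 64 kept direction and side of the threshold, and of 176 that left out an array 130 did. These totals include probe sets not called in the main fit, which counted as kept when they stayed uncalled. Smcp in lymphocytes, uncalled, was kept in 18 of 18 that left out an array. Among the calls, under the other settings Tnp2 with Ovation at 50 pg was kept in 1 of 5. Tnp1 (1415924_at) with RiboAmp HS at 50 pg was kept in 0 of 4, and Prm1 (1437054_x_at) in RAW267 in 3 of 3. Leaving out an array kept that Prm1 call in 5 of 11. Member signals were dim: 1 to 11 of 14 probe sets passed the low-signal filter in a fit.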
